A study of Mus musculus with 12 samples.

Results

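The 45 genes described here encode the machinery that copies DNA in S phase and the regulators that switch it on. They were taken by symbol from a list of replication genes and matched through their Entrez gene IDs to the deposited table, which held 27179 genes; all 45 were found, and all 45 passed the filter on low counts with 13131 genes in all. They were followed in 6 groups of sorted B cells from C57BL/6 mice immunised with the hapten-carrier conjugate NP-KLH in alum. Each group was 2 libraries of polyA RNA, and each library was made from a pool of 2 to 8 mice, so that n = 2 pools per group throughout and no pool stands for a single animal.

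In the Myb experiment, germinal centre (GC) B cells were sorted on day 12 after immunisation, while plasmablasts (PB) came from mice boosted with NP-KLH in PBS, on day 5 of that response. The Myb control mice were Myb fl/fl and carried no cre. The Myb knockout mice were Myb fl/fl with CD23-cre T/+, a cre driven by the promoter of CD23 (Fcer2a), which is active in mature B cells before the GC forms. Cre is therefore present in the knockout alone, and its effect cannot be told apart from the loss of Myb. In the Moz experiment, GC B cells were sorted on day 7. The Moz control mice carried a cre transgene (T/+), and the Moz knockout mice were Moz fl/fl with the same cre T/+, so both carried the cre. Moz is the histone acetyltransferase with the gene symbol Kat6a, and Myb encodes the transcription factor c-Myb.

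Before a cell copies its DNA, the origin recognition complex binds origins and, with CDC6 and CDT1, loads the ring of MCM2 to MCM7 proteins onto them; this is called licensing. At the start of S phase CDC45 and the GINS complex join the ring and make it an active helicase, after which polymerases, a sliding clamp, ligase and histone chaperones follow the fork. Many of these genes are transcribed by E2F factors when RB family proteins let go of them, which cyclin E and its kinase promote. GC B cells of the dark zone are among the fastest dividing cells in the body, plasmablasts still divide, and plasma cells have left the cell cycle.

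Promoter windows of the members were searched for short motifs. Stretches are shown only where the part upstream of the gene's annotated span holds an E2F octamer. RefSeq windows of the GRCm38.p6 assembly, from 250 bases before to 50 bases after an annotated start, were found for 37 of the 45 members, in 42 windows, since some genes have several starts. The letters TTTCCCGC, TTTCGCGC, TTTGCCGC and TTTGGCGC, spellings of the E2F binding octamer, were searched on both strands, and overlapping matches were counted at each start position. At least 1 octamer was found in 14 of the 42 windows (33.3%), against 744 of 32851 windows of the same length over all genes (2.26%). Of 20 matches in the members' windows, 9 lay at or after the annotated start. The letters CCAAT, searched the same way, were in 24 of the 42 windows (57.1%) and in 12289 of all windows (37.4%). The following stretches lie just upstream of the gene's annotated span, 5′ to 3′ on the gene's strand, with the octamer matches in capitals (runs of capitals longer than 8 bases are overlapping matches on opposite strands).
Mcm6, chr1:128359706-128359905, minus strand, 3 matches: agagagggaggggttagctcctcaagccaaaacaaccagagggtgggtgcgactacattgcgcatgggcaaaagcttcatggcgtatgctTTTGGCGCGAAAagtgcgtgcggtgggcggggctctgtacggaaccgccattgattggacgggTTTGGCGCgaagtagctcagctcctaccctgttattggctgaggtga
Mcm5, chr8:75109309-75109467, plus strand, 2 matches: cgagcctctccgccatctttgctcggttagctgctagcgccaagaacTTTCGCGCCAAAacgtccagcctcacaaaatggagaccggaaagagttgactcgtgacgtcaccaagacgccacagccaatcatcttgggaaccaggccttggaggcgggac
Gins3, chr8:95633359-95633558, plus strand, 1 match: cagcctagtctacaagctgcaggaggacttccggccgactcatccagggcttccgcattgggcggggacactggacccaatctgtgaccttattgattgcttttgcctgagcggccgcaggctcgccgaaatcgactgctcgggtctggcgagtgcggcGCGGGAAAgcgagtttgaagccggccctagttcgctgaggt
Rfc3, chr5:151651209-151651408, minus strand, 1 match: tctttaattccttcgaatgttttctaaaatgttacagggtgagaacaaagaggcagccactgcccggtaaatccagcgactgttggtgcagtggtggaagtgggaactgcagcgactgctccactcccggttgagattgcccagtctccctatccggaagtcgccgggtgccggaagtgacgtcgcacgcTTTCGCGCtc
Mcm6 and Mcm5 are subunits of the same helicase ring and each carries a pair of overlapping matches on opposite strands, yet their transcripts fell by different amounts between the cell types. Gins3 has 1 match in its window; Rfc3 has 1 in the stretch printed here and 2 in its window, the other starting at the annotated start. A match is a run of letters and was not shown here to be bound.

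Library sizes were 8285934 to 24801297 counts, and the lowest count of any of the 45 genes in any library was 11 (Orc1 in plasmablasts). Levels are given as CPM, counts scaled to a common library size, after TMM scaling, which brings the bulk of genes to a common level, and a pair of values is pool 1 and then pool 2, with the control set before the knockout; immunoglobulin and T cell receptor segment genes took 65.0 to 70.0% of plasmablast counts and 1.59 to 9.16% of GC counts. The sorted cells carried the markers of their labels: 8 GC B-cell markers summed to 1120 to 1990 CPM in GC pools and 63.5 to 76.4 CPM in plasmablasts, and 8 plasma cell markers to 926 to 7240 and 105000 to 144000 CPM. Markers of T cells summed to at most 7.65 CPM and of erythroid cells to at most 2.42 CPM in any library, and markers of naive follicular B cells to 140 to 430 CPM in GC pools and 34.8 to 201 CPM in plasmablasts. Myeloid markers summed to 10.8 to 40.6 CPM in GC pools and 36.8 to 77.1 CPM in plasmablasts. Of the deleted genes, Myb was at 14.04 and 11.5 CPM in control and 13.04 and 11.6 CPM in knockout GC pools, which overlap, and at 4.13 and 4.64 CPM in control against 3.12 and 3.10 CPM in knockout plasmablasts, which do not (log2 -0.49, SE 0.29, edgeR adjusted p = 1). Kat6a was at 82.01 and 73.4 CPM among Moz controls and 66.4 and 93.7 CPM among Moz knockouts, which overlap. Which exons were floxed was not given in the sources used here, so that these whole-gene counts do not check the deletion. Over the other libraries Myb was at 15.1 and 11.7 CPM in the Moz controls and 16.4 and 11.7 CPM in the Moz knockouts, and Kat6a at 46.6 to 106.6 CPM in the 8 Myb libraries.

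Summed over the 45 genes, plasmablasts held far fewer replication transcripts than GC B cells. The summed level was 5796 and 6614 CPM in Myb control GC pools, 5657 and 7225 CPM in Myb knockout GC pools, 5479 and 6865 CPM in the Moz controls and 5154 and 5651 CPM in the Moz knockouts. In plasmablasts it was 728 and 854 CPM in control and 786 and 1017 CPM in knockout pools. All 8 GC pools lay above all 4 plasmablast pools, and within each experiment and cell type the control and knockout pools overlapped. As a share of counts outside the segment genes, which the scaling does not touch, the 45 genes took 0.882 to 1.17% in GC pools and 0.0934 to 0.127% in plasmablasts. In bulk RNA, fewer cells in S phase and less of each transcript per cell cannot be told apart.

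**Figure D1:**
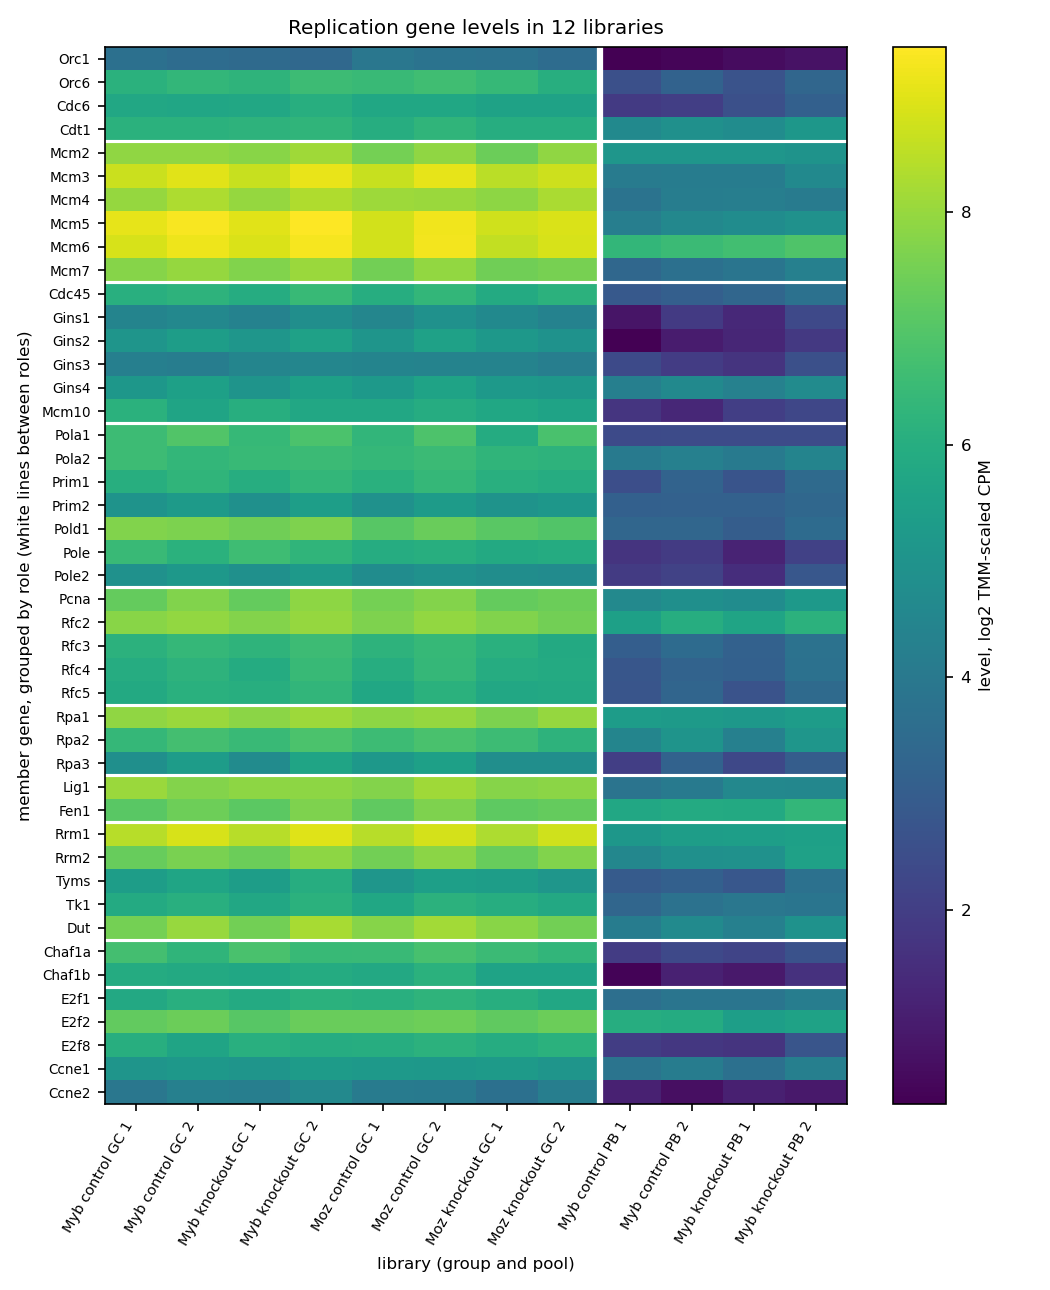
Heat map of log2 CPM for the 45 genes (rows, ordered by role) in the 12 libraries (columns, by group and pool). For each gene, all 4 plasmablast columns are below all 8 GC columns.

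Between control plasmablasts and control GC B cells, all 45 genes were lower in plasmablasts (edgeR quasi-likelihood test, Benjamini-Hochberg adjusted p under 0.05), where 28.1% of all tested genes were called lower. In the Myb knockout 45 of 45 were also lower, against 27.2% of all tested genes. The median log2 difference was -3.08 in the control, over a range of -5.07 to -0.88, and -2.78 in the knockout, over -4.71 to -0.74; over all tested genes the median was -0.17 in both. In the control, 11 genes fell by more than 16-fold, 13 by 8- to 16-fold, 15 by 4- to 8-fold and 6 by less than 4-fold. No plasmablast pool shares an experiment date with a GC pool. The plasmablasts also came from boosted mice on day 5 of that response, and these GC B cells from day 12 after immunisation. Date, boost, day and cell type therefore cannot be told apart. The control pools of this comparison enter the Myb comparisons too.

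Among the licensing genes, Cdc6, the loader that brings the MCM ring to origins (Entrez 23834, chr11:98907709-98923942 on mm10), fell most. Its level was 54.5 and 52.6 CPM in control GC pools, 55.1 and 65.9 in knockout GC pools, 52.96 and 54.1 in the Moz controls and 47.97 and 47.3 in the Moz knockouts, and 3.68 and 4.02 in control against 5.84 and 8.61 CPM in knockout plasmablasts. All 8 GC pools lay far above the plasmablasts, and knockout plasmablasts lay above control ones. Against GC B cells the difference was log2 -3.80, SE 0.23, edgeR adjusted p = 2.33e-07 in the control, and log2 -3.06, SE 0.22 in the knockout. Orc1, an ATP-binding subunit of the origin recognition complex (chr4:108575705-108616030), was scarce everywhere: 12.99 and 11.7 CPM in control and 10.96 and 10.6 in knockout GC pools, 15.3 and 13.7 in the Moz controls and 13.5 and 11.6 in the Moz knockouts, and 1.26 and 1.38 against 1.56 and 1.72 CPM in plasmablasts. Every plasmablast pool lay below every GC pool (log2 -3.23, SE 0.25, edgeR adjusted p = 1.04e-06). Orc6, the smallest subunit of the same complex, was at 70.3 and 82.2 CPM in control and 74.8 and 94.8 CPM in knockout GC pools and at 5.84 and 9.04 against 6.23 and 10.1 CPM in plasmablasts, a log2 difference of -3.37 in both genotypes. Cdt1, the other loader (chr8:122568015-122573130), held up best of the 4: 70.4 and 69.4 CPM in control and 73.5 and 77.8 in knockout GC pools, 63.4 and 77.3 in the Moz controls and 63.9 and 63.1 in the Moz knockouts, and 25.2 and 29.9 against 26.6 and 35.2 CPM in plasmablasts (log2 -1.34, SE 0.20, edgeR adjusted p = 0.000148). Control plasmablasts thus kept 39.4% of the control GC level of Cdt1 and 7.19% of that of Cdc6.

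All 6 subunits of the MCM helicase fell, with a median log2 difference of -4.27 in the control and -3.91 in the knockout, but by unequal amounts. Mcm5 (Entrez 17218, chr8:75109468-75128439) was at 540.3 and 639 CPM in control and 509.6 and 684 in knockout GC pools, 442 and 603 in the Moz controls and 439 and 484 in the Moz knockouts, and 18.8 and 23.97 against 26.6 and 30.6 CPM in plasmablasts. The lowest GC pool was thus far above the highest plasmablast pool (log2 -4.79, SE 0.29, edgeR adjusted p = 2.41e-07 in the control; log2 -4.38, SE 0.29, edgeR adjusted p = 4.88e-07 in the knockout). Mcm3, its neighbour in the ring (chr1:20802966-20820312), went from 418 and 511 to 17.4 and 17.7 CPM in the control (log2 -4.73, SE 0.30, edgeR adjusted p = 3.01e-07) and from 407 and 559.6 to 17.9 and 25.02 CPM in the knockout (log2 -4.49, SE 0.30, edgeR adjusted p = 5.36e-07). Mcm4 went from 255 and 316 to 13.7 and 17.9 CPM in the control and from 253 and 326 to 18.4 and 17.3 CPM in the knockout (log2 -4.02, SE 0.26, edgeR adjusted p = 4.70e-07), and Mcm7 had log2 differences of -4.36 and -3.80. These 4 subunits all fell by more than 16-fold in the control. Mcm2 (chr6:88883474-88898780), at 238 and 239.6 CPM in control and 226 and 279 in knockout GC pools, 183 and 239 in the Moz controls and 166 and 238 in the Moz knockouts, and 34.8 and 34.1 against 34.3 and 32.1 CPM in plasmablasts, fell less (log2 -2.79, SE 0.24, edgeR adjusted p = 2.19e-06). Mcm6 fell least of the 6, from 462 and 578 to 82.3 and 92.1 CPM in the control (log2 -2.58, SE 0.27, edgeR adjusted p = 9.65e-06) and from 475 and 625 to 102 and 120.4 CPM in the knockout (log2 -2.31, SE 0.27, edgeR adjusted p = 2.31e-05).

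**Figure D2:**
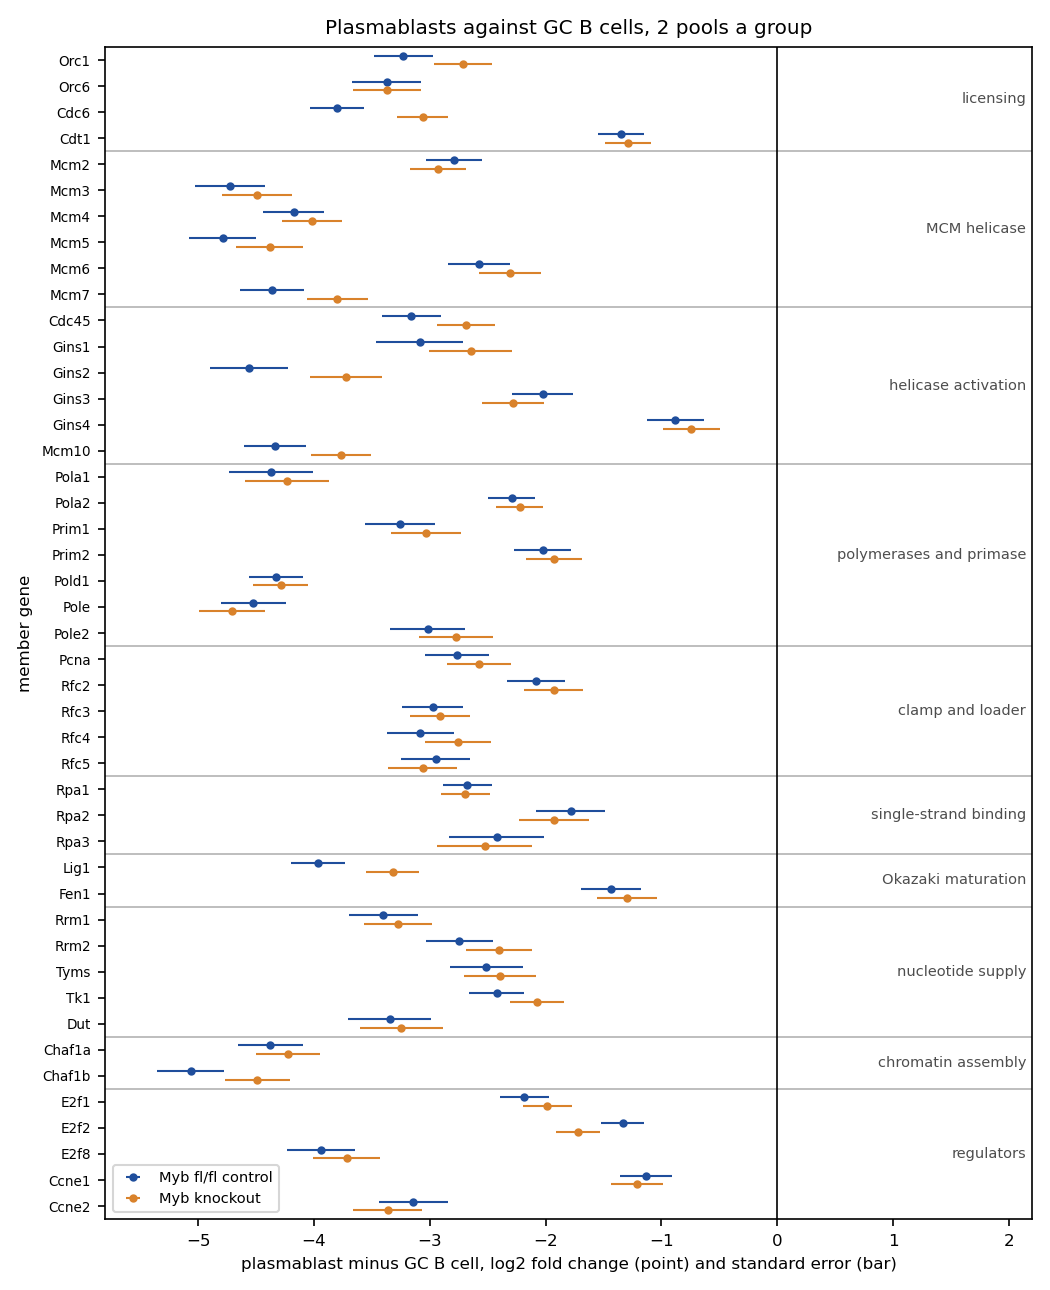
Log2 difference of plasmablasts from GC B cells (x axis) for each of the 45 genes (y axis, by role) in the control and the Myb knockout, with bars of 1 SE. Every point is below 0, and the 6 genes that fell by less than 4-fold in the control (Cdt1, Gins4, Rpa2, Fen1, E2f2 and Ccne1) are spread over 5 roles.

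The genes that turn the loaded ring into a working helicase had a median of -3.12 in the control and -2.67 in the knockout. Cdc45, which binds the ring at the start of S phase, was at 67.6 and 73.9 CPM in control and 61.97 and 87.7 in knockout GC pools, 63.2 and 81.4 in the Moz controls and 59.7 and 71.2 in the Moz knockouts, and 7.36 and 8.53 against 9.99 and 13.2 CPM in plasmablasts (control log2 -3.16, SE 0.26). The 4 subunits of the GINS complex, which act as a unit in the cell, had unequal differences. Gins2 (chr8:120581266-120589075) went from 33.2 and 42.3 to 1.26 and 2.01 CPM in the control (log2 -4.56, SE 0.33, edgeR adjusted p = 6.74e-07) and from 34.03 and 46.2 to 2.47 and 3.56 CPM in the knockout. Gins1 went from 21.4 and 23.5 to 1.80 and 3.64 CPM in the control and from 20.4 and 28.01 to 2.60 and 5.05 CPM in the knockout, with 22.6 and 30.6 in the Moz controls and 24.9 and 20.4 CPM in the Moz knockouts (control log2 -3.09, SE 0.37). Gins3 had log2 differences of -2.02 and -2.28. Gins4 (chr8:23226610-23237668) kept more of its level than any other of the 45, from 34.9 and 45.5 to 18.9 and 24.9 CPM in the control (log2 -0.88, SE 0.25, edgeR adjusted p = 0.0104) and from 32.7 and 45.1 to 20.1 and 26.3 CPM in the knockout (log2 -0.74, SE 0.25, edgeR adjusted p = 0.0248). Its call was lost without control GC pool 2 (log2 -0.69, edgeR adjusted p = 0.0770) or control PB pool 1 (log2 -0.70, edgeR adjusted p = 0.0941), and in the knockout without GC pool 2 (log2 -0.50) or PB pool 1 (log2 -0.54), each with an edgeR adjusted p of 0.176, and in a fit of the compared groups alone (edgeR adjusted p = 0.0754). Mcm10, which helps the polymerases engage, had log2 differences of -4.34 and -3.77.

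The polymerases fell strongly. Pold1, the catalytic subunit of polymerase delta, which copies the lagging strand (Entrez 18971, chr7:44532744-44548815), had the smallest p of the 45 in both genotypes: 206 and 196 CPM in control and 176 and 202 in knockout GC pools and 9.97 and 10.04 against 8.05 and 11.2 CPM in plasmablasts (log2 -4.33, SE 0.24, edgeR adjusted p = 1.30e-07 in the control; log2 -4.29, SE 0.24, edgeR adjusted p = 2.27e-07 in the knockout). Pole, the catalytic subunit of the leading-strand polymerase epsilon (chr5:110286319-110337468), was at 89.3 and 71.02 CPM in control and 96.6 and 76.97 in knockout GC pools, 61.4 and 65.7 in the Moz controls and 57.7 and 59.9 in the Moz knockouts, and 3.23 and 3.77 against 2.34 and 4.25 CPM in plasmablasts. It had the largest fall of the knockout comparison (log2 -4.71, SE 0.28, edgeR adjusted p = 3.37e-07) and a log2 difference of -4.52 in the control. Pola1, the catalytic subunit of the polymerase that starts each strand, was at 93.5 and 123 CPM in control and 85.5 and 114 in knockout GC pools, 79.5 and 117 in the Moz controls and 59.96 and 113 in the Moz knockouts, and 5.21 and 5.27 against 5.32 and 5.28 CPM in plasmablasts (control log2 -4.37, SE 0.36). The accessory subunits had smaller log2 differences than the catalytic ones they bind, -2.29 for Pola2 and -3.02 for Pole2 in the control. Both are also the shorter genes, Pola2 with 2872 bases beside 5347 for Pola1 and Pole2 with 1695 beside 7129 for Pole. The part of length was not tested. The primase genes Prim1 and Prim2, which make the RNA primers, were at -3.26 and -2.02 on the same scale.

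Pcna, the sliding clamp that tethers polymerases to DNA (chr2:132249286-132253180), was at 154 and 207 CPM in control and 153 and 232 in knockout GC pools, 182 and 212 in the Moz controls and 156 and 165 in the Moz knockouts, and 24.2 and 28.99 against 26.6 and 37.98 CPM in plasmablasts (control log2 -2.77, SE 0.28). The clamp loader subunit Rfc3 went from 71.5 and 83.2 to 8.35 and 11.4 CPM in the control and from 75.7 and 94.8 to 8.96 and 13.7 CPM in the knockout (control log2 -2.98, SE 0.26). Rfc4 and Rfc5 were close to it at -3.08 and -2.95, and Rfc2 fell least of the loader genes at -2.08 (log2 difference, control). Of the subunits of RPA, which coats single-stranded DNA, Rpa1 was at -2.68, Rpa3 at -2.42 and Rpa2 at -1.78 (log2 difference, control). Rpa2 was at 84.3 and 103 CPM in control and 90.5 and 115 in knockout GC pools, 93.4 and 112 in the Moz controls and 93.95 and 74.1 in the Moz knockouts, and 22.2 and 32.4 against 19.3 and 34.5 CPM in plasmablasts. Pool 2 was above pool 1 in all 4 groups of the Myb experiment, and the cell types did not overlap.

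The genes that finish the lagging strand split. Lig1, the ligase that seals Okazaki fragments (Entrez 16881, chr7:13277175-13311426), was at 266 and 214 CPM in control and 235 and 234 in knockout GC pools, 213 and 279 in the Moz controls and 219.6 and 227 in the Moz knockouts, and 14.1 and 16.7 against 23.9 and 23.1 CPM in plasmablasts (log2 -3.96, SE 0.23, edgeR adjusted p = 1.99e-07 in the control). Fen1, the flap nuclease that trims the same fragments, was at 135 and 171 CPM in control and 139.5 and 201 in knockout GC pools, 146 and 204 in the Moz controls and 142 and 154 in the Moz knockouts, and 54.3 and 58.99 against 57.8 and 80.7 CPM in plasmablasts (log2 -1.43, SE 0.26, edgeR adjusted p = 0.000690). Control plasmablasts kept 37.01% of the Fen1 level and 6.42% of the Lig1 level. Both groups of plasmablasts lay below all GC pools for either gene.

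The nucleotide supply genes had a median of -2.74 in the control and -2.40 in the knockout. Rrm2, the subunit of ribonucleotide reductase whose level limits the enzyme in S phase, was at 157 and 194 CPM in control and 167 and 237 in knockout GC pools, 181 and 227 in the Moz controls and 159 and 207 in the Moz knockouts, and 22.99 and 29.6 against 30.6 and 45.8 CPM in plasmablasts (control log2 -2.74, SE 0.29). Its partner Rrm1 had a log2 difference of -3.40 in the control. Tyms, which makes thymidylate, was at 42.2 and 50.6 CPM in control and 41.9 and 64.1 in knockout GC pools, 34.8 and 44.2 in the Moz controls and 42.4 and 34.1 in the Moz knockouts, and 7.63 and 8.66 against 7.01 and 13.1 CPM in plasmablasts (control log2 -2.51, SE 0.32). Tk1, the thymidine salvage kinase, was at -2.42 and Dut, which clears dUTP, at -3.35 (log2 difference, control).

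The CAF-1 genes, whose products place histones on new DNA, had the lowest median of any role, -4.72 in the control and -4.35 in the knockout. Chaf1b (Entrez 110749, chr16:93883900-93906115) fell most of all 45 in the control, from 60.1 and 57.96 to 1.35 and 2.26 CPM (log2 -5.07, SE 0.29, edgeR adjusted p = 1.72e-07), and went from 53.3 and 61.01 to 1.95 and 3.10 CPM in the knockout (log2 -4.49, SE 0.28, edgeR adjusted p = 3.82e-07). Control plasmablasts kept 3.06% of the GC level. Chaf1a was at 105 and 78.4 CPM in control and 112 and 86.9 in knockout GC pools, 89.5 and 110.3 in the Moz controls and 91.01 and 79.04 in the Moz knockouts, and 3.86 and 5.02 against 4.54 and 6.08 CPM in plasmablasts (control log2 -4.38, SE 0.28).

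The regulators had the median nearest to 0, -2.18 in the control and -1.98 in the knockout. E2f1, an activator of S phase genes, was at 56.9 and 66.2 CPM in control and 58.4 and 70.9 in knockout GC pools, 66.4 and 74.96 in the Moz controls and 65.3 and 55.4 in the Moz knockouts, and 12.5 and 14.7 against 14.4 and 18.2 CPM in plasmablasts (control log2 -2.18, SE 0.21). E2f2, a related activator (chr4:136172274-136196057), stayed higher, at 149.5 and 165 CPM in control and 135 and 162 in knockout GC pools, 164 and 170.2 in the Moz controls and 148 and 168 in the Moz knockouts, and 64.2 and 60.9 against 42.7 and 47.6 CPM in plasmablasts (control log2 -1.33, SE 0.19). E2f8, an atypical member that represses S phase genes, fell much further (-3.94 in the control and -3.72 in the knockout, log2). Of the cyclins that start S phase, Ccne1 was at 33.6 and 36.4 CPM in control and 33.7 and 39.9 in knockout GC pools, 36.6 and 36.1 in the Moz controls and 39.4 and 33.2 in the Moz knockouts, and 14.2 and 17.8 against 12.7 and 18.9 CPM in plasmablasts (log2 -1.13, SE 0.22, edgeR adjusted p = 0.00125). Ccne2 was at 15.4 and 19.5 CPM in control and 18.6 and 24.3 in knockout GC pools, 17.2 and 16.8 in the Moz controls and 12.8 and 18.4 in the Moz knockouts, and 2.25 and 1.63 against 2.21 and 1.95 CPM in plasmablasts, a larger fall (log2 -3.14, SE 0.30).

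The make-up of the MCM ring's transcripts differed between the cell types, given here as a description with no test between genes. Per base of counted gene length and within each library, which no scaling between libraries touches, Mcm6 made up 22.9 to 25.8% of the 6 transcripts in the 8 GC pools and 48.6 to 50.8% in the 4 plasmablast pools. Mcm2 rose in share, from 8.58 to 10.3% in GC pools to 11.7 to 17.7% in plasmablasts. The shares of the other 4 were lower in every plasmablast pool than in any GC pool: Mcm5 20.6 to 22.7% against 9.41 to 11.04%, Mcm3 20.8 to 22.8% against 8.81 to 10.6%, Mcm7 11.4 to 13.1% against 7.33 to 9.98% and Mcm4 9.04 to 12.4% against 5.92 to 7.65%. The GC ranges are taken over the pools of day 7 and day 12 and of every genotype, whose shares were not compared with each other.

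**Figure D3:**
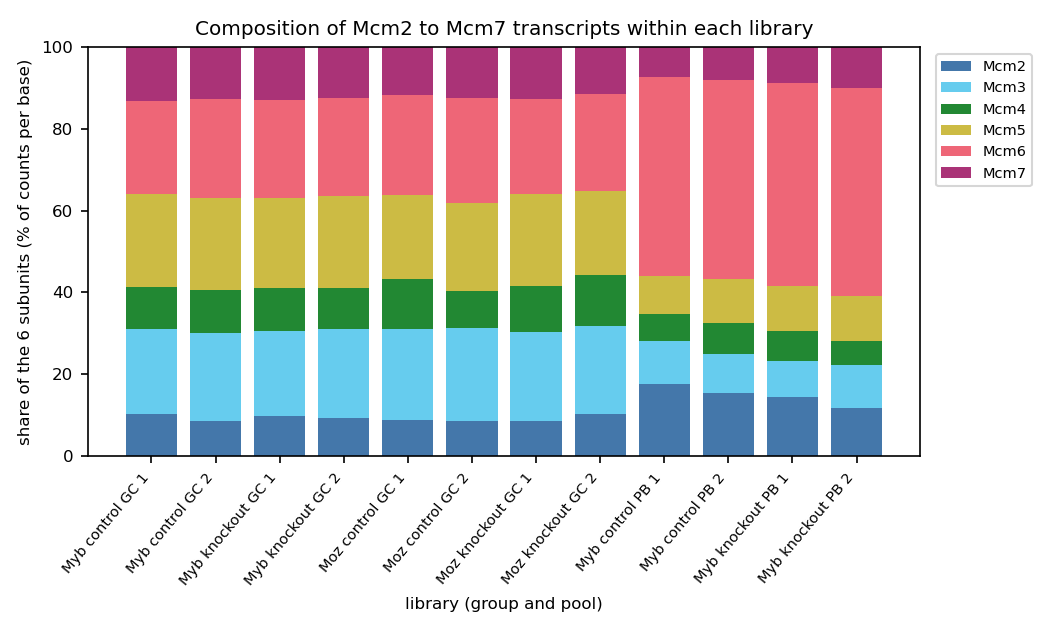
Share of each MCM subunit in the summed per-length level of the 6 subunits (y axis, %) in each library, by group (x axis). Mcm6 sits at 22.9 to 25.8% in the 8 GC pools and 48.6 to 50.8% in the 4 plasmablast pools, and no subunit's GC and plasmablast ranges overlap.

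Other partners separated in the same way, given here as ratios of per-length levels within a library; these pairs were chosen after their values were seen and carry no test. Gins4 to Gins2 was 0.731 to 0.871 in GC pools and 5.62 to 11.5 in plasmablasts. Cdt1 to Cdc6 was 2.53 to 3.06 in GC pools and 8.78 to 15.96 in plasmablasts. Fen1 to Lig1 was 0.806 to 1.37 in GC pools and 3.84 to 6.12 in plasmablasts. Each of these ranges is clear of the other cell type's. Ccne1 to Ccne2 (2.70 to 5.06 against 9.48 to 18.0), Pola2 to Pola1 (1.22 to 2.42 against 5.77 to 7.61), Rfc2 to Rfc5 (3.55 to 4.39 against 7.32 to 9.17) and Rrm2 to Rrm1 (0.766 to 0.965 against 1.18 to 1.85) were also clear of each other. Chaf1a to Chaf1b was 0.782 to 1.22 in GC pools and 1.14 to 1.66 in plasmablasts, which overlap. In every clear pair but Gins4 to Gins2, the partner that gained was the shorter gene. The lengths were 2191 bases for Cdt1 beside 4701 for Cdc6, 2215 for Fen1 beside 3520 for Lig1, and 1956 for Ccne1 beside 3217 for Ccne2. They were 2872 for Pola2 beside 5347 for Pola1, 1518 for Rfc2 beside 1730 for Rfc5, and 2180 for Rrm2 beside 3997 for Rrm1. Gins4 (1364 bases) was longer than Gins2 (1038). Differences between pools followed counted length, with Pearson's r of 0.621 in control and 0.601 in knockout plasmablasts over 8810 genes. The part of length in these ratios was not tested.

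Per length, the order of the genes changed with it. In control GC B cells the highest were Mcm6 (179 ± 28.3 CPM per kb, SD, n = 2), Mcm5 (172 ± 20.5), Mcm3 (161 ± 22.8), Rfc2 (153 ± 10.6) and Pcna (143 ± 29.2), and neighbours in this order lay within their SD. In control plasmablasts the highest were Rfc2 (36.1 ± 8.76 CPM per kb), Mcm6 (30.1 ± 2.40), Fen1 (25.6 ± 1.49), Pcna (21.1 ± 2.71) and Gins4 (16.1 ± 3.06). Rfc2 and Mcm6 lay within the SD of Rfc2, and the further steps were larger than the SDs. Between the cell types Mcm5 went from rank 2 to 20, Mcm3 from 3 to 21 and Mcm7 from 7 to 24 of the 45. Gins4 went from rank 30 to 5, E2f2 from 25 to 7 and Cdt1 from 27 to 9, while Orc1 was last in both.

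Beside the 45, 51 other genes of the replication pathway were read out. In the control 39 were lower and 4 higher in plasmablasts, with a median log2 difference of -2.30, and in the knockout 38 were lower and 4 higher, with a median of -2.38. Of all 13131 tested genes, 3695 were lower and 3289 higher in the control, and 3567 and 3203 in the knockout. Those of the 51 with the smallest p were Uhrf1 and Hells, which maintain DNA methylation and chromatin at new DNA (log2 -5.04 and -4.55 in the control), Dna2, a nuclease and helicase (-4.12), and Cdca7, a partner of Hells (-5.92). The 4 higher genes hold cells out of S phase. So do the inhibitor Cdkn2c and the RB family member Rbl1 of the same list, which were not called higher. The 4 were the inhibitors Cdkn1b (2.41) and Cdkn1a (1.43) and the RB family members Rb1 (1.87) and Rbl2 (0.70), as log2 values in the control. The direction of Cdkn1a, Rb1 and Rbl2 depends on the scaling: with the total count alone, which moves the median of all genes to -2.04, the 4 genes were at 0.51, -0.43, -0.01 and -1.17, in that order. The 45 members had a median of -4.96 on that scale. A change of scale moves all genes of a comparison by about the same amount. Their distance from the median of all genes (-2.92, against -2.91 with TMM) therefore could not change much and is no check of the scaling.

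A list of 16 genes of G2 and mitosis fell with the replication genes, 16 of 16 in both genotypes, with medians of -3.74 in the control and -3.41 in the knockout; their summed level was 2470 to 3520 CPM in GC pools and 354 to 498 CPM in plasmablasts. Of the GC B-cell markers, control plasmablasts kept 0.960% of the GC level of Bcl6 and 0.390% of that of Rgs13, where they kept 3.06% (Chaf1b) to 54.5% (Gins4) of the levels of the 45 genes. All 8 GC markers were lower, with Fas the least reduced at 25.8%. The 5 markers of NK and plasmacytoid dendritic cells summed to 12.6 to 34.6 CPM in GC pools and 156 to 337 CPM in plasmablasts. In the control 2 of the 5 were called higher in plasmablasts (edgeR), and 3 were negative without a call. Their median log2 difference was -0.11, over a range of -2.37 to 4.31, so the sum does not stand for the list as a whole. The part of such cells in the replication genes was not tested. Of the 45 genes, 13 overlap another gene on the genome (Orc1, Mcm7, Cdc45, Gins2, Pole2, Rfc4, Rpa1, Lig1, Fen1, Tk1, Chaf1a, E2f1 and Ccne2), and without a stated strand setting their counts are uncertain. The 32 without such an overlap were all lower in control plasmablasts, with a median of -2.96. The 14 genes with an E2F octamer in a promoter window had a median of -3.51 and the 23 with a window but no octamer -2.79, given as a description.

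In GC B cells, none of the 45 genes passed the test for the loss of Myb, where 0.259% of all tested genes did (34 genes). The median log2 difference of knockout from control was 0.08, against 0 over all tested genes; 36 values were positive and 9 negative, and no unadjusted p was under 0.05. Without knockout GC pool 2 the median was -0.15, and without control GC pool 1 it was -0.02. The smallest p belonged to Ccne2 (log2 0.30, SE 0.24, edgeR adjusted p = 1), and its control and knockout pools overlapped. Gins3, at 19.1 and 18.3 CPM in control and 21.9 and 22.7 CPM in knockout pools (log2 0.25, SE 0.23, edgeR adjusted p = 1), Orc1 (log2 -0.19, SE 0.20, edgeR adjusted p = 1) and Cdc6 (log2 0.18, SE 0.19, edgeR adjusted p = 1) came next, and the groups of these 3 did not overlap, Orc1 with the lower values in the knockout. In all, 4 of the 45 did not overlap (8.89%), against 25.5% of all tested genes. Markers of other cells differed between these groups. Of 8 plasma cell markers 7 were positive in the knockout, with a median log2 difference of 1.00, 5 had an unadjusted p under 0.05 and 1 was called higher (edgeR), while their summed level was 926 to 1480 CPM in control and 1310 to 1850 CPM in knockout pools. Markers of NK and plasmacytoid dendritic cells summed to 12.6 to 13.5 against 21.0 to 29.5 CPM, and of T cells to 3.95 to 4.33 against 5.34 to 7.65 CPM, with no call in either list. GC B-cell markers were negative in 7 of 8, with a median log2 difference of -0.19 and no call. They summed to 1650 to 1990 CPM in control and 1380 to 1920 CPM in knockout pools, which overlap. The part of any of these markers' cells in the values of the 45 genes was not tested.

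In plasmablasts, again none of the 45 passed the test for the loss of Myb, against 0.0381% of all tested genes (5 genes). The median was 0.24, against 0.01 over all tested genes; 37 values were positive, and 5 genes had an unadjusted p under 0.05. Cdc6 was at 3.68 and 4.02 CPM in control and 5.84 and 8.61 CPM in knockout pools, a higher value in both knockout pools (log2 0.92, SE 0.24, edgeR adjusted p = 0.556). Lig1 was at 14.1 and 16.7 CPM in control and 23.9 and 23.1 CPM in knockout pools (log2 0.61, SE 0.22, edgeR adjusted p = 1), and Gins2 at 1.26 and 2.01 against 2.47 and 3.56 CPM (log2 0.92, SE 0.38, edgeR adjusted p = 1). E2f2 was the exception, at 64.2 and 60.9 CPM in control and 42.7 and 47.6 CPM in knockout pools (log2 -0.47, SE 0.19, edgeR adjusted p = 1). Mcm7 was at 10.2 and 12.8 against 14.7 and 19.5 CPM (log2 0.58, SE 0.26, edgeR adjusted p = 1). In all 5 genes the groups did not overlap. This held for 16 of the 45 (35.6%) and for 25.2% of all tested genes, where 0.0381% were called, so that the count is no result about the 45. The mitosis genes showed 16 of 16 positive values with a median of 0.46 and no call.

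Same-numbered knockout and control pools shared their experiment dates per the labels, so that each pair can be read on its own. In pair 1 of the plasmablasts the median of the 45 differences was 0.11 (31 positive) and in pair 2 it was 0.27 (41 positive); 29 genes were positive in both pairs and 2 negative in both. Cdc6 differed by 0.65 and 1.08, Gins2 by 0.91 and 0.79, Lig1 by 0.76 and 0.46, and E2f2 by -0.59 and -0.35 (log2 CPM). With the date as a block still none of the 45 was called. With the block and a correction for gene length and GC content, chosen after seeing the data, 3 were called higher: Mcm7 (log2 0.56, SE 0.12, edgeR adjusted p = 0.0320), Rrm2 (log2 0.48, SE 0.10, edgeR adjusted p = 0.0328) and Lig1 (log2 0.64, SE 0.14, edgeR adjusted p = 0.0418). In that fit 1.4% of all tested genes were called. Without knockout plasmablast pool 2 the median over the 45 was -0.01, and without knockout pool 1 it was 0.49.

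Whether Myb loss acted differently in plasmablasts and in GC B cells was tested as the difference of the effects. None of the 45 passed, against 0.00762% of all tested genes (1 gene). The median difference was 0.15, against -0.01 over all tested genes, and only Cdc6 had an unadjusted p under 0.05 (log2 0.74, SE 0.31, edgeR adjusted p = 1.00). With the total count alone as the scale the median was -0.02. Leaving out 1 pool moved it from -0.09 (without knockout PB pool 2, 29 of 45 negative) to 0.40 (without knockout GC pool 2). The fall from GC B cells to plasmablasts was therefore not shown to differ with genotype for any of the 45, including those whose knockout value was nearer to 0, such as Gins2 (-4.56 in the control and -3.72 in the knockout) and Cdc6 (-3.80 and -3.06).

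**Figure D4:**
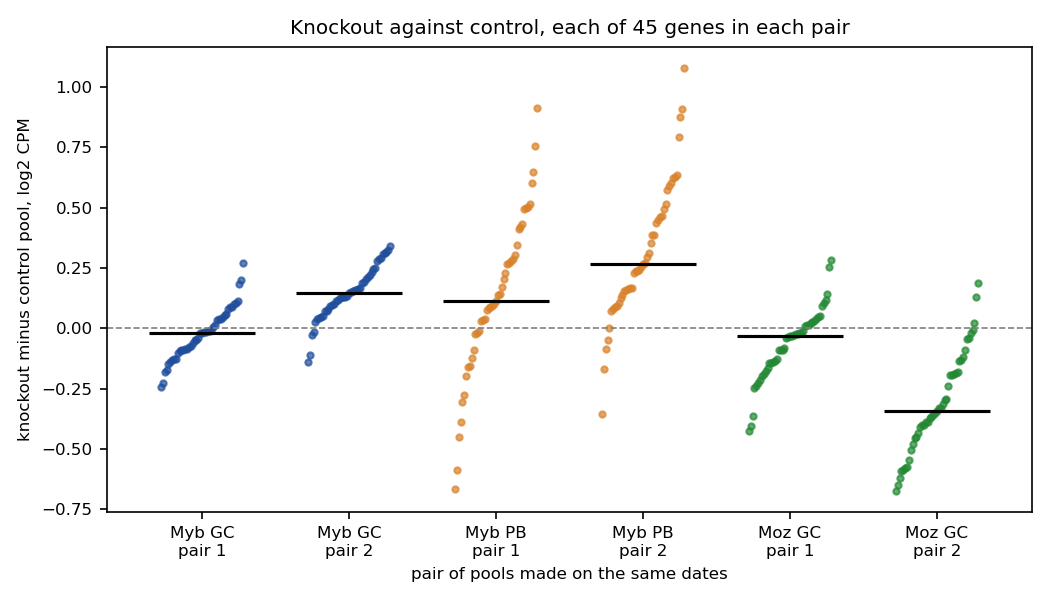
Log2 difference of knockout from control pool (y axis, log2 CPM) for each of the 45 genes (points, sorted) in pair 1 and pair 2 of the 3 knockout comparisons (x axis), with a bar at the median. The medians are -0.02 and 0.15 in Myb GC, 0.11 and 0.27 in Myb PB, and -0.03 and -0.34 in Moz GC, and every pair has genes on both sides of 0.

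After the loss of Moz, none of the 45 genes in GC B cells passed the test, and 0.0% of all tested genes did (0 genes). Every value was negative (43 of 45 in DESeq2 and 35 of 45 without Moz knockout pool 1), with a median of -0.19 and a lowest value of -0.52, where the median of all tested genes was -0.01, and no unadjusted p was under 0.05. Chaf1b was at 56.2 and 70.4 CPM in control and 48.5 and 48.2 CPM in knockout pools (log2 -0.39, SE 0.22, edgeR adjusted p = 1). Rfc3 was at 74.2 and 85.9 against 67.8 and 57.6 CPM (log2 -0.35, SE 0.23, edgeR adjusted p = 1), and Rpa3 at 36.3 and 44.6 against 28.2 and 28.4 CPM (log2 -0.52, SE 0.36, edgeR adjusted p = 1). Orc6 was at 89.9 and 100 against 84.5 and 65.04 CPM (log2 -0.35, SE 0.26, edgeR adjusted p = 1). In these 4 the knockout pools lay below the control pools. The groups did not overlap in 14 of the 45 (31.1%), close to the 26.7% of all tested genes. Mcm6, for comparison, was at 441 and 619 CPM in control and 384 and 472 CPM in knockout pools, which overlap.

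The negative sign rested mainly on pair 2. The median was -0.03 in pair 1 (30 negative) and -0.34 in pair 2 (42 negative). Chaf1b differed by -0.21 and -0.55, Rpa3 by -0.36 and -0.65 and Orc6 by -0.09 and -0.62 (log2 CPM). Without Moz control pool 2 the median over the 45 was -0.04 and 28 values were negative. In pair 2 the difference followed the counted length of the gene, with Pearson's r of 0.618 over the 45 and 0.528 over 8810 genes, and the shorter genes had the lower values. In pair 1 it was -0.183 over the 45, and the difference there followed GC content (0.493). These values are across genes of the same 2 libraries and carry no test. The summed level of plasma cell markers was 4620 to 4890 CPM in control and 6050 to 7240 CPM in knockout pools, and of GC markers 1400 to 1460 and 1120 to 1210 CPM. Naive follicular B-cell markers summed to 312 to 378 against 423 to 430 CPM, and myeloid markers to 13.9 to 21.6 against 25.0 to 27.2 CPM. Markers of NK and plasmacytoid dendritic cells summed to 22.7 to 26.0 against 33.5 to 34.6 CPM, though of the 5 genes 2 were positive and 3 negative (median log2 -0.01). T cell and erythroid markers overlapped, and no marker was called. The part of any of these in the values of the 45 genes was not tested.

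**Figure D5:**
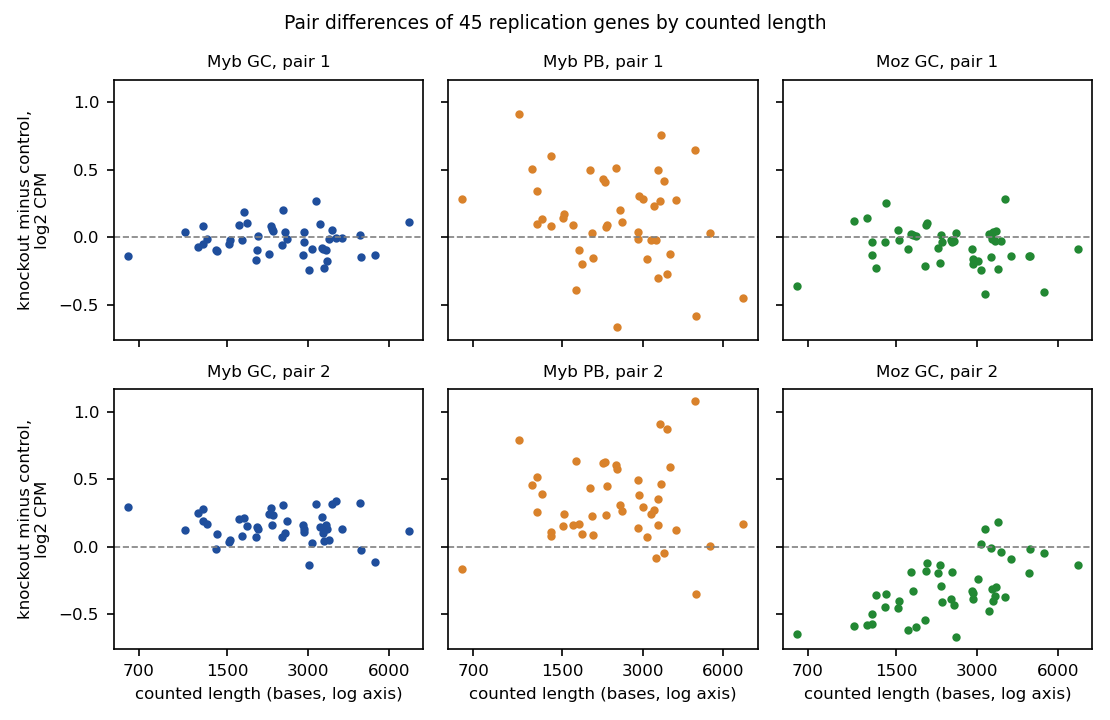
Log2 difference of knockout from control pool (y axis, log2 CPM) against counted gene length (x axis, bases, log scale) for the 45 genes (points), in a panel for each pair of the 3 knockout comparisons. In Moz pair 2 the shorter genes sit lower (r = 0.618), and in Moz pair 1 no such slope is seen (r = -0.183).

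Pools of 1 genotype also differed from each other across the 45 genes. In the Myb experiment 33 of the 45 were lower in GC pool 1 than in GC pool 2 in both genotypes, and the 2 genotypes' differences correlated at 0.911 over the 45 genes. In plasmablasts 34 were lower in pool 1 in both genotypes, with a correlation of 0.36. In the Moz experiment 19 were lower in pool 1 in both genotypes and 23 had opposite signs, with a correlation of 0.173. The medians of these differences between pools of different dates ran from -0.48 (log2, knockout plasmablasts) to 0.02 (Moz knockout). Between the single pools of a knockout and control pair, the median furthest from 0 was -0.34 (Moz pair 2).

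The Moz control GC pools of day 7 and the Myb control GC pools of day 12 differ in day, experiment and cre, which cannot be told apart. None of the 45 genes passed the test between them, against 1.38% of all tested genes (181 genes), and the median was 0.03, against 0.02 over all tested genes. Only Pold1 had an unadjusted p under 0.05, at 134 and 162 CPM on day 7 and 206 and 196 CPM on day 12 (log2 -0.44, SE 0.20, edgeR adjusted p = 0.637). Both day 7 pools lay below both day 12 pools, as they did for Pole (log2 -0.34) and Pole2 (log2 -0.20). For Orc1, Orc6, Gins3 and E2f1 both day 7 pools lay above both day 12 pools. In all, the groups did not overlap in 7 of the 45 (15.6%), against 34.1% of all tested genes. These control pools also enter the comparisons above, so that the values are not independent of them. Plasma cell markers summed to 4620 to 4890 CPM in the day 7 pools and 926 to 1480 CPM in the day 12 pools. All 8 were positive on day 7, with a median log2 difference of 2.98, and 6 were called higher (edgeR). Of 8 GC B-cell markers 7 were negative, with no call. The part of either in the values of the 45 genes was not tested.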

How the data were processed

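RNA of 12 pools of sorted mouse B cells was sequenced by the authors. The raw counts per Entrez gene were deposited by the authors; the submitters' processing notes name featureCounts and mm10, with aligner, strand setting and versions not given in the sources used here. Counts in each library's own table equalled those of the series table (0 genes differing). Gene positions and promoter windows came from RefSeq on GRCm38.p6, the same build as mm10.

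The counts of all 12 libraries entered 1 model in edgeR 4.0.16 (R 4.3.3) with 6 group means (6 residual degrees of freedom), TMM scaling and filterByExpr (minimum count 10, minimum total 15; 13131 genes kept). The quasi-likelihood F test was two-sided, with the Benjamini-Hochberg adjustment over all tested genes of a comparison and a limit of 0.05. The code of the fit was run on simulated counts with less spread than the data and no effect of date. The changes built in were larger than the medians of the knockout comparisons. That run therefore does not show how well such small differences are found. The biological coefficient of variation was 0.221. With 2 pools against 2, the smallest exact permutation p is 0.333, so that no such test was used. SE stands for the standard error of the log2 difference.

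Same-numbered knockout and control pools share experiment dates, per the labels, and their deviations from the group mean correlated at 0.600 (Myb GC), 0.453 (Myb PB) and 0.361 (Moz GC) over 13131 genes. The members, the other lists and the tests were chosen with earlier results of these data known. Values in every library are given for fixed representatives of each role and the 4 genes with the smallest p in each comparison; other names and the paired ratios were chosen after their values were seen. Alternatives were DESeq2 1.42.0, limma 3.58.1, other scalings, no filter, the compared groups alone, the replicate block and leaving out each pool. The values of 1 marker gene and the driver of 1 cre are not reported here.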

Additional observations from a re-analysis of the deposited data

Results flagged for a closer look

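The median difference of Myb knockout from control over the 45 genes in plasmablasts was 0.11 in pair 1 and 0.27 in pair 2, while in GC B cells the median difference of Moz knockout from control was -0.033 in pair 1 and -0.34 in pair 2. They stand out only because both medians are above 0 for Myb and both below 0 for Moz. No gene passed in either comparison, and Moz pair 1 lay near the median of 8810 genes (-0.016), with 15 of the 45 positive. The difference between the experiments was not tested, and experiment, cell type, day and gene all differ between them.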

How the results depend on the processing

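Of the summary values under the alternatives, 281 moved by less than the spread between pools (for counts of genes, stayed within 1.5 times) and 7 moved by more; that spread is wide against the small medians of the knockout comparisons. Of 96 member medians 9 had the other sign: 2 for Myb in GC B cells, 1 for Myb in plasmablasts, 2 for the difference of effects and 4 for day 7 against day 12. Over the alternatives the medians ran from -0.01 to 0.49 for Myb in plasmablasts, -0.32 to -0.04 for Moz, -0.09 to 0.40 for the difference of effects and -0.08 to 0.17 between the days. Single-gene values were followed under every alternative for a chosen set, which took in the 4 genes with the smallest p of each comparison. Of these values 443 kept their direction and side of the threshold and 1 passed it newly. The count does not cover all calls of the 45 genes. Mcm7, Rrm2 and Lig1 were newly called in Myb PB with the block and the length and GC correction, and Gins4 lost calls. Gins4 was the only gene of the 45 whose fall in plasmablasts lost its call under any alternative run. Of the other replication genes, Rbl2 was called higher in control plasmablasts (0.70) and called lower with the total count alone (-1.17), and Cdkn1a and Rb1 turned negative there without a call. With the total count alone, the median over the 45 genes for plasmablasts against GC B cells was -4.96 in the control and -4.83 in the knockout; this scale moves the median of all genes to -2.04 and -2.21. Leaving out 1 pool at a time gave medians of -3.27 to -2.88 in the control, -3.23 to -2.62 in the knockout and -0.15 to 0.22 for the loss of Myb in GC B cells, where the sign was negative without knockout pool 2 or control pool 1. With the replicate block, 0 of the 45 were called in the 3 knockout comparisons and in the difference of effects, with medians of 0.07 (Myb GC), 0.20 (Myb PB), -0.20 (Moz) and 0.14 (difference); with the block and the length and GC correction, 3 were called in Myb PB. The block leaves 3 residual degrees of freedom, and it could not be fitted between plasmablasts and GC B cells or between days, which share no dates. DESeq2 and limma called 0 of the 45 in every knockout comparison, with 5 and 3 at an unadjusted p under 0.05 for Myb loss in plasmablasts. The adjusted p of Cdc6 for Myb loss in plasmablasts ran from 0.0545 to 1 over the alternatives. Plasmablast libraries gave as few as 11 counts for a member.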
